A study of Mus musculus with 6 samples.

Results

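The mouse macrophage line RAW264.7 is widely used as a precursor from which osteoclasts, the bone-resorbing cells, can be grown. The transcripts of 4 genes, Acp5, Ctsk, Atp6v0d2 and Gpnmb, are described here and were taken by name from a table of 345 genes. All 4 are in the table. They stand for the resorbing enzymes, the proton pump and a lysosomal membrane glycoprotein of osteoclasts, and all 4 are also expressed by macrophages. The libraries are 3 of untreated Control cultures and 3 of cultures given, for 48 h, a 5-fold diluted extract of a Zn-0.8Li Gyroid (G) scaffold, a 3D printed zinc-lithium alloy lattice. No osteoclast-inducing cytokine is named for either group, and nothing states whether the replicates are separate cultures, so the p-values measure only the spread between these libraries. The table holds only genes that passed the authors' own thresholds on these same 6 libraries, so the 4 genes had to differ to be in it. The tests below describe the size and spread of the differences and are not independent evidence of them. Such selection can overstate the sizes and make intervals too narrow and p-values too small.

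An osteoclast seals off a patch of bone and pumps acid and enzymes onto it, using machinery that other cells keep inside lysosomes. The vacuolar proton pump (V-ATPase) acidifies the space, cathepsin K cuts the collagen exposed by the acid, and tartrate-resistant acid phosphatase is released with them. Many genes of this machinery are targets of MITF and its relatives TFEB and TFE3, which bind short E-box sequences, and osteoclast formation also depends on AP-1 factors such as c-Fos and on NFATc1.

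Promoter sequences show where such E-box and AP-1 letters lie near the genes described here. RefSeq windows (GRCm38.p6, 250 bases before to 50 bases after a transcription start) matched 3 of the 4 genes, and Atp6v0d2 is the gene without one. Acp5 has 3 RefSeq starts, and the one shown is the start at position 22130598 of chromosome 9. It is the only one of the 3 whose window holds a match. The motifs searched on both strands are the E-box CACGTG, a second E-box, CATGTG, which reads as CACATG from the opposite strand, and the AP-1 site, TGACTCA, which reads as TGAGTCA from the opposite strand. The 250 bases before each start are printed 5′ to 3′ on the strand of the gene, with any match in capitals.
Acp5, chr9:22130599-22130848, minus strand: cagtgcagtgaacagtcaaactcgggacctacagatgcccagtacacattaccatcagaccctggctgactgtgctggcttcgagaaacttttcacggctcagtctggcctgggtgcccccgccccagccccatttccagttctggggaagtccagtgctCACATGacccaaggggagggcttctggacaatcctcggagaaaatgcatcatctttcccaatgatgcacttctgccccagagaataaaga
Ctsk, chr3:95498960-95499209, plus strand: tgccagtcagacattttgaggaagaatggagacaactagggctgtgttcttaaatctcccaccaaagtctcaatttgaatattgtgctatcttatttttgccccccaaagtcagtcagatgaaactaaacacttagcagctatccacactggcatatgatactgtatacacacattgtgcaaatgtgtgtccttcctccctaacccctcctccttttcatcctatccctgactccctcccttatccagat
Gpnmb, chr6:49036268-49036517, plus strand: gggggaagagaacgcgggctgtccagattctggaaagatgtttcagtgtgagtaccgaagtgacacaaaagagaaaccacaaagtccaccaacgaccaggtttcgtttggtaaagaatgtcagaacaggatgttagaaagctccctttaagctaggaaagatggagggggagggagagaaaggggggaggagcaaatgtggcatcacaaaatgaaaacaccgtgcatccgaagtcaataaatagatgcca
The Acp5 window holds one match, CACATG, from base -90 to base -85 counted from the start. The windows at the other 2 Acp5 starts hold none of the 3 motifs. No match lies in the Ctsk window. The Gpnmb window holds TGACTCA from base 9 to base 15 after the start, outside the printed stretch. None of the 5 windows of these genes holds CACGTG. Over all 32851 RefSeq windows of this length, 14.2% hold CATGTG on either strand, 5.2% hold TGACTCA and 7.15% hold CACGTG. Both matched motifs thus occur in many other windows, TGACTCA in fewer than CATGTG. These shares are per window and per motif. Acp5 has 3 windows, so a match in any of them is more likely than the share for a single window. A match is only a run of letters, and binding was not measured. The printed Acp5 stretch overlaps annotated transcripts of Acp5 itself and of the antisense gene 6530413G14Rik, and it overlaps an Acp5 exon.

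The comparison asks how macrophages differ after culture in scaffold extract. All 4 transcripts are lower in the G scaffold group, with deeper falls in Acp5 and Ctsk than in Atp6v0d2 and Gpnmb. The G scaffold mean is 27.3% of the Control mean for Acp5, 28.0% for Ctsk, 45.2% for Atp6v0d2 and 43.8% for Gpnmb. In each of the 4 genes the highest G scaffold library is below the lowest Control library. All 4 pass an adjusted p of 0.05 and a |log2 fold change| of 1 in the limma test, which runs on log2(normalized count + 1) over all 345 genes with Benjamini-Hochberg adjustment. Over all 345 genes, 15.9% of the genes are called lower and 16.8% have non-overlapping groups with the G scaffold group lower, while 98.6% are called and 99.7% do not overlap in one direction or the other. Since the table was selected on this contrast, nothing is read from the count of 4. A lower value in bulk RNA does not tell fewer expressing cells from less RNA per cell.

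**Figure D1:**
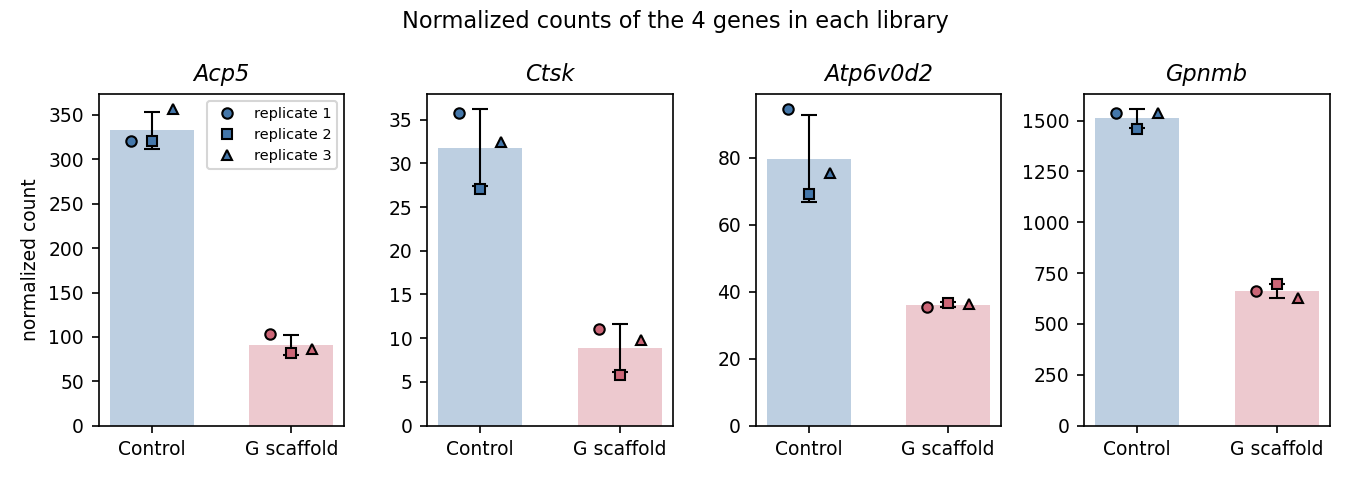
Normalized counts (reads divided by a size factor per library) of the 4 genes, one panel each with its own axis from 0. Bars are means and error bars SD over 3 libraries, and the symbols mark replicates 1 to 3. In each panel the 3 G scaffold libraries lie below the 3 Control libraries.

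Acp5 (MGP_SPRETEiJ_G0033022) encodes tartrate-resistant acid phosphatase, the enzyme stained for to count osteoclasts. Its position in the SPRET/EiJ coordinates of the table is chromosome 9, bases 19401111 to 19409905, minus strand. Normalized counts of Acp5 are 321, 320.3 and 356 in the first, second and last Control library, and 104, 82.0 and 86.2 with extract. The Control libraries lie close together, and the lowest of them is 3.08 times the highest G scaffold library. The group means are 333 ± 20.7 and 90.7 ± 11.6 normalized counts (SD, n = 3 in each group). The log2 fold change is -1.87 (standard error 0.147, 95% interval -2.23 to -1.51, adjusted p = 6.29e-05, limma). Of the 58 genes with a lower mean in the G scaffold group, Acp5 ranks 13 by the size of the fall on the log2 scale, between Gpr34 (-2.21) and Jam2 (-1.86). This rank moves, to 4 with a pseudocount of 10 and to 18 without G scaffold replicate 3. In GENCODE M21 (GRCm38), 137 of its 2030 exonic bases are shared with the antisense gene 6530413G14Rik. The counts carry SPRET/EiJ identifiers, and the overlap was not checked in that annotation. The sources used here do not say whether counting used strand, so reads from any shared bases cannot be assigned with certainty.

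Ctsk (MGP_SPRETEiJ_G0026288), on chromosome 3, bases 93341236 to 93353025, plus strand, encodes cathepsin K, the cysteine protease that degrades bone collagen. Untreated libraries give Ctsk 35.8, 27.1 and 32.5 normalized counts, and libraries with extract 11.1, 5.79 and 9.79. The second replicate is the lowest of its group in both conditions. The means are 31.8 ± 4.40 and 8.89 ± 2.76 normalized counts (SD, n = 3 in each group). The log2 fold change is -1.76 (standard error 0.254, 95% interval -2.38 to -1.14, adjusted p = 0.000636, limma), with the widest interval of the 4 genes. Ctsk is the lowest of them in reads, with 36, 25 and 34 reads without extract and 11, 6 and 10 with it. The 3 G scaffold libraries together hold 27 reads (exact Poisson 95% interval 17.8 to 39.3, for counting error only) against 95 (76.9 to 116) in Control. Its log2 fold change runs from -1.93 to -1.51 when single libraries are left out, and a pseudocount of 10 gives -1.15.

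Atp6v0d2 (MGP_SPRETEiJ_G0026788), on chromosome 4, bases 16544470 to 16597555, minus strand, encodes the d2 subunit of the membrane sector of the V-ATPase, which osteoclast precursors need to fuse. Its normalized counts are 94.4, 69.3 and 75.5 without extract, and 35.3, 36.7 and 36.2 with extract. Control replicate 1 stands above the other two, while the G scaffold libraries are nearly equal. The means are 79.7 ± 13.1 and 36.1 ± 0.703 normalized counts (SD, n = 3 in each group). The SD in the G scaffold group, 1.95% of the mean, is far below the 16.5% that counting error alone gives at this number of reads, so it understates the error of that mean. The 110 G scaffold reads have an exact Poisson 95% interval from 90.4 to 133, and the 238 Control reads one from 209 to 270.2. The log2 fold change is -1.11 (standard error 0.157, 95% interval -1.49 to -0.73, adjusted p = 0.000599, limma). This is the smallest change of the 4. Leaving out the high Control replicate 1 gives -0.98 and a pseudocount of 10 gives -0.95, both short of a |log2 fold change| of 1.

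Gpnmb (MGP_SPRETEiJ_G0029365), on chromosome 6, bases 46654050 to 46689724, plus strand, encodes a membrane glycoprotein of lysosomes and melanosomes that is also called osteoactivin. The Control libraries hold 1538, 1459 and 1535 normalized counts of Gpnmb, and those with extract 662, 696 and 629. The replicates of each group differ little, and the means are 1511 ± 45.1 and 662 ± 33.1 normalized counts (SD, n = 3 in each group). The log2 fold change is -1.19 (standard error 0.121, 95% interval -1.48 to -0.89, adjusted p = 0.000164, limma). With 4503 Control reads and 2021 reads with extract, this value has the most reads behind it of the 4. Its Control spread, 2.99% of the mean, is close to the 2.58% that counting error gives.

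The 4 genes also differ in level. Normalized counts per kb of gene length, with the lengths of the table, are 232 ± 6.93 for Gpnmb, 205 ± 12.8 for Acp5, 29.6 ± 4.87 for Atp6v0d2 and 21.1 ± 2.92 for Ctsk in Control (SD, n = 3). In the G scaffold group they are 102 ± 5.07 for Gpnmb, 56.0 ± 7.16 for Acp5, 13.4 ± 0.261 for Atp6v0d2 and 5.89 ± 1.83 for Ctsk (SD, n = 3). The order is the same in both groups, from Gpnmb down to Ctsk. On this per-kb scale the neighbours in the order do not overlap in any library, although the lowest Gpnmb library in Control (224) is near the highest Acp5 library (220.1). Atp6v0d2 and Ctsk in Control are also close, with a lowest value of 25.7 for Atp6v0d2 and a highest of 23.7 for Ctsk. These orders rest on the annotated lengths, which run from 1508 bases for Ctsk to 6518 bases for Gpnmb and need not be the transcripts present in RAW264.7.

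The ratio of 2 genes within a library compares the sizes of their falls. Taken on normalized count + 1, it depends on how the libraries are scaled only through the added 1, which weighs most on Ctsk. Of the 6 pairs, 4 have ratios that do not overlap between the groups, and these are the pairs that set Acp5 or Ctsk against Atp6v0d2 or Gpnmb. The log2 ratio of Acp5 to Gpnmb is -2.26, -2.18 and -2.10 without extract, and -2.66, -3.07 and -2.86 with extract. Each ratio with extract is thus below each Control ratio, and the mean difference is -0.68, a further 1.6-fold drop of Acp5. The same difference is -0.76 for Acp5 against Atp6v0d2, -0.65 for Ctsk against Atp6v0d2 and -0.57 for Ctsk against Gpnmb. Each of these 4 has p = 0.1 in a two-sided exact permutation test (0.15 after Benjamini-Hochberg adjustment over the 6 pairs). With 3 against 3 libraries 0.1 is the smallest value the test can give, so none of the 6 can pass 0.05. The differences with Ctsk rest in part on G scaffold replicate 2, where Ctsk has 6 reads, and without it they are -0.39 against Atp6v0d2 and -0.29 against Gpnmb. With a pseudocount of 10, which weighs on the low counts of Ctsk, they are -0.20 and 0.03. Within the pairs of similar change the ratios overlap. Acp5 against Ctsk differs by -0.11 (exact permutation p = 0.7, from -0.29 to 0.01 when single libraries are left out, and -0.62 with a pseudocount of 10), and Atp6v0d2 against Gpnmb by 0.08 (exact permutation p = 0.6, from 0.01 to 0.19 when single libraries are left out, and 0.23 with a pseudocount of 10).

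**Figure D2:**
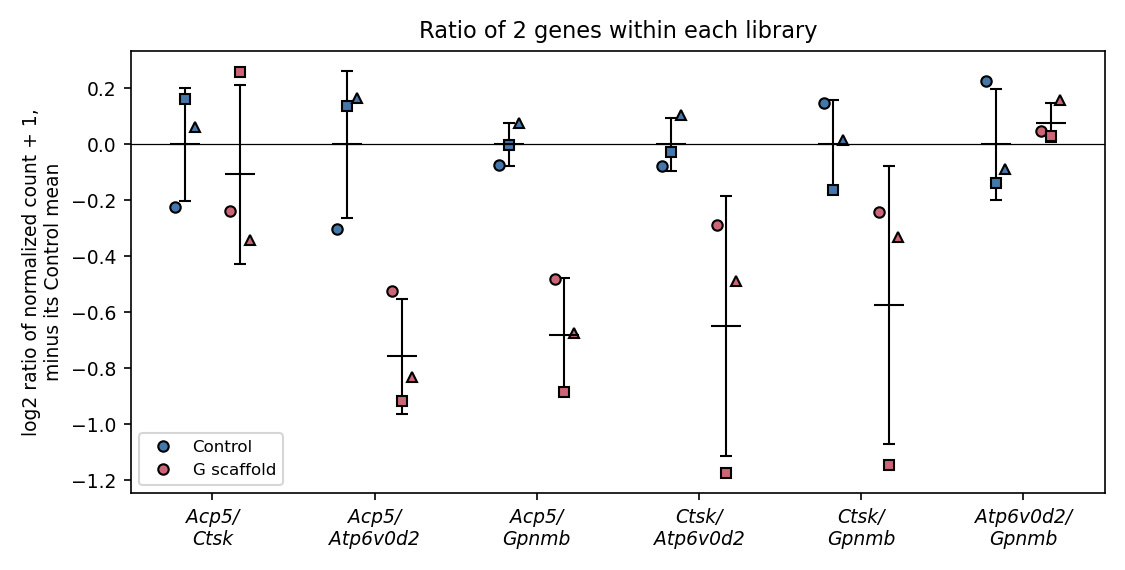
Log2 ratio of the normalized count + 1 of 2 genes in each library (vertical axis, after subtracting the Control mean of that pair) for the 6 pairs of genes. Lines are means with SD over 3 libraries, and circles, squares and triangles are replicates 1, 2 and 3. The G scaffold ratios lie below Control in the 4 pairs that set Acp5 or Ctsk against Atp6v0d2 or Gpnmb, and overlap with it in the other two.

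Scaling changes the size of all 4 falls but not their direction. When TMM factors replace the deposited scaling, Acp5 is at -3.34, Ctsk at -3.13, Atp6v0d2 at -2.56 and Gpnmb at -2.67 (log2 fold change), and when column totals replace it they are at -2.51, -2.36, -1.74 and -1.83. These scalings move the median of all 345 genes from 1.87 to 0.48 and 1.27, shifts of -1.39 and -0.60, because most listed genes are higher in the G scaffold group. The deposited scaling thus gives the smallest falls of the 3. TMM factors and column totals were computed here from the 345 listed genes alone, of which 82.6% are called higher. TMM assumes that most genes are unchanged, which these genes do not meet. Column totals over these genes are themselves larger in the G scaffold group. The values with TMM factors or column totals are therefore no equal alternative to the deposited scaling.

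**Figure D3:**
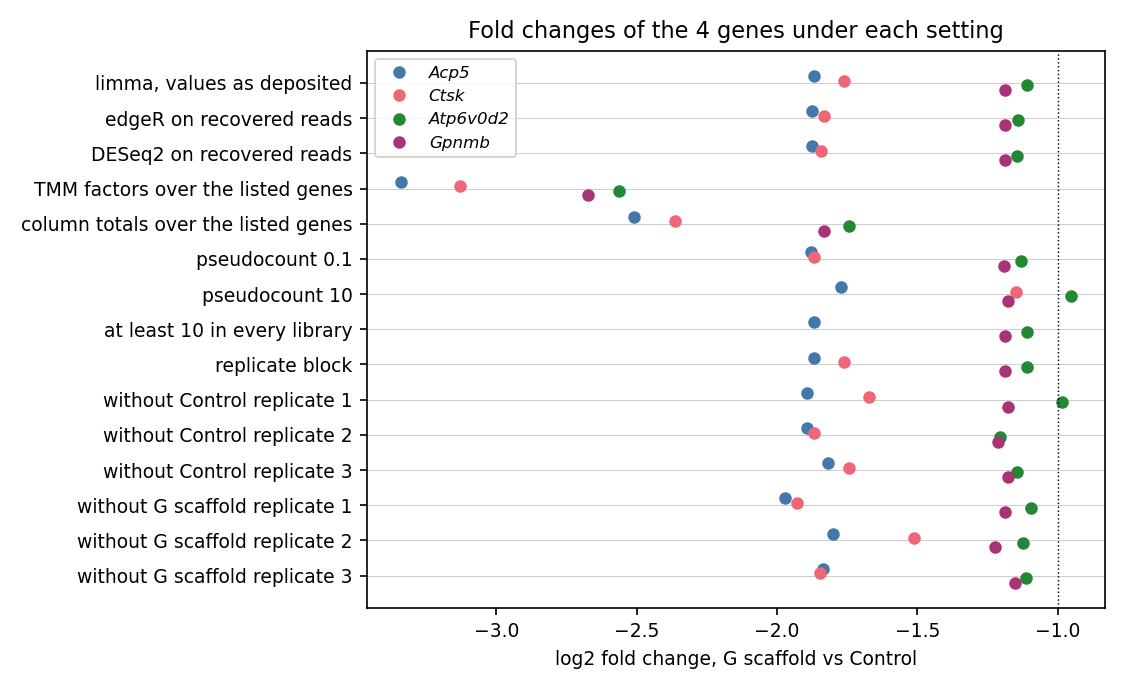
Log2 fold change, G scaffold vs Control (horizontal axis), of the 4 genes in the limma test on the deposited values (top) and under each alternative (vertical axis). The dotted line marks -1. Under 14 alternatives Acp5 runs from -3.34 to -1.77 and Gpnmb from -2.67 to -1.15, and Atp6v0d2 crosses the line with a pseudocount of 10 and without Control replicate 1. Ctsk has no point at a minimum of 10 in every library, since it is below 10 in a G scaffold library.

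The 3 listed genes whose profile is most like each of the 4 were found by the root mean square difference between log2(normalized count + 1) values, each gene centred on its own mean over the 6 libraries. For Acp5 these are S1pr1, a sphingosine-1-phosphate receptor (0.14), Rarb, a retinoic acid receptor (0.17), and Jam2, a junctional adhesion molecule (0.21). For Ctsk they are Jam2 (0.19), Acp5 (0.22) and Rarb (0.24), so Acp5 is the only one of the 4 genes to come up for another. Gpnmb is nearest to Havcr2, which encodes the checkpoint receptor TIM-3 (0.051), then to Hpgd, which encodes a prostaglandin-degrading enzyme (0.064), and to Celf3 (0.10). Atp6v0d2 is nearest to the unnamed gene MGP_SPRETEiJ_G0018227 (0.078), to Agmo (0.088) and to another unnamed gene (0.095). Havcr2 falls from 227 to 105 and Agmo from 235 to 104 normalized counts. The measure mostly reflects the size of the group difference, since that is the main variation over the 6 libraries.

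Other genes of the same machinery were read from 6 lists of 181 genes written from general knowledge. Besides the 4 genes, 10 of the other 177 are in the table, and 9 of these are called higher with extract and 1 is called lower, in a table where 82.6% of the genes are called higher. All 9 stay above 0 with TMM factors and with column totals, but 4 and 8 of them, respectively, are still called higher. Here and below, TMM factors and column totals over these selected genes are no equal alternative to the deposited scaling. A pseudocount of 10 leaves 7 called higher, without Prdm1 and Fabp4. Genes of the lists outside the table are not analysed here, so the lists show only which members passed the authors' thresholds.

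Osteoclast effector genes go in both directions. Of 23 genes on the osteoclast effector and fusion list, 5 are in the table, with Acp5, Ctsk and Atp6v0d2 called lower and Src and Mmp9 called higher. The shares over all 345 genes are 15.9% called lower and 82.6% called higher. Src, whose tyrosine kinase osteoclasts need for their ruffled border, has 12.9, 17.3 and 28.7 normalized counts without extract and 78.6, 91.6 and 80.3 with it. Mmp9, a gelatinase secreted by osteoclasts and macrophages, has 1.99, 4.33 and 0.956 without extract and 20.2, 16.4 and 16.6 with it. The groups do not overlap in either gene. The log2 fold changes are 2.10 for Src (adjusted p = 0.000531, limma) and 2.57 for Mmp9 (adjusted p = 0.000619, limma). With TMM factors Src is at 0.66 and no longer called. Mmp9 has only 2, 4 and 1 reads in the Control libraries, and its log2 fold change is 1.165 with a pseudocount of 10.

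Of 36 genes on the list of the RANK pathway and osteoclast regulators, 4 are in the table, and all 4 are called higher. Since 82.6% of all 345 genes are called higher, nothing is read from this count. Fos, the AP-1 gene without which osteoclasts do not form, has 265, 335 and 350 normalized counts without extract, and 1280.3, 1178 and 1274 with it. Its log2 fold change is 1.98 (adjusted p = 6.23e-05, limma), while with TMM factors it is 0.50 and not called. Fosl1, the AP-1 gene that encodes Fra-1, has a Control mean of 66.8 ± 11.9 and a G scaffold mean of 486 ± 25.7 normalized counts (SD, n = 3). Prdm1, the gene of the repressor Blimp-1, has 0 reads in every Control library and 4, 6 and 11 in the G scaffold libraries, at least 2.26-fold higher than a floor of 3 reads per library. Myc, a growth-promoting transcription factor gene, has a mean of 11.9 normalized counts without extract and 33.2 with it, and a log2 fold change of 0.10 with TMM factors. Of 21 inhibitors of osteoclast formation, 1 is in the table. This is Id1, an inhibitor of basic helix-loop-helix factors, with 7.95, 26.0 and 13.4 normalized counts without extract and 92.7, 56.0 and 105 with it. Its log2 fold change is 2.45 (adjusted p = 0.0019, limma) as deposited, and it is no longer called with TMM factors.

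The lysosomal lists add no further gene. Of 25 V-ATPase subunit genes, Atp6v0d2 is the only one in the table. Of 66 genes of lysosomal hydrolases, membrane proteins and their regulators, Acp5 and Ctsk are in the table, both lower. The list of lipid and repair macrophage genes that often accompany Gpnmb holds 21 genes, of which 4 are in the table. Gpnmb and Abca1 are called lower, and Spp1 and Fabp4 higher. Abca1, the cholesterol exporter, has 90.4, 108 and 88.9 normalized counts without extract, and 35.3, 39.6 and 27.4 with it. Its log2 fold change is -1.48 (adjusted p = 0.000367, limma). Spp1, which encodes the secreted bone matrix protein osteopontin, has a log2 fold change of 2.11 as deposited and 0.62 with TMM factors, against -1.19 and -2.67 for Gpnmb. Fabp4, a fatty acid carrier, has no Control library above 3 reads, and its G scaffold mean is at least 3.88-fold higher than that floor.

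**Figure D4:**
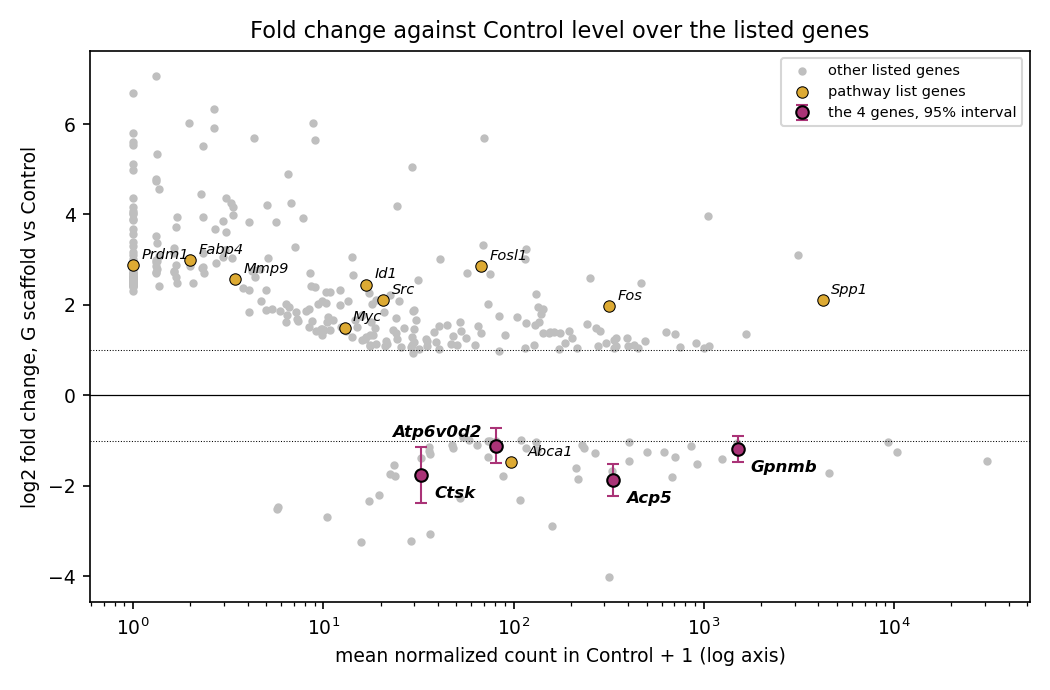
Log2 fold change, G scaffold vs Control, in the limma test (vertical axis) against the mean normalized count in Control + 1 (horizontal log axis) for the 345 listed genes. The 4 genes are drawn with their 95% intervals, 10 other genes of the pathway lists are labelled, and dotted lines mark 1 and -1. The 4 genes and Abca1 lie below 0, and the other 9 labelled genes lie above it. For genes with few Control reads, such as Prdm1, Fabp4 and Mmp9, the plotted value depends on the pseudocount.

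Markers of the cell type can be checked only in part. Of 12 macrophage markers 1 is in the table, Mpeg1, which has 8717 to 9896 normalized counts without extract and 4161 to 4793 with it (log2 fold change -1.03, adjusted p = 0.000406, limma). Of 12 osteoblast and fibroblast markers 1 is in the table, Col1a1, with 0 reads in all 3 Control libraries and 8, 9 and 5 reads in the G scaffold libraries. Other markers, the defining ones included, are not analysed here. The contribution of these marker changes in the values of the 4 genes was not tested.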

How the data were processed

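The series holds RNA-seq of 6 RAW264.7 libraries, 3 Control and 3 G scaffold, grouped by their titles. The titles give only C or Zn with a replicate number. The G scaffold extract, its dilution, the alloy and the exposure time are taken from the paper that reported the data. The deposited table has a signal value for every gene and library, made by the authors from gene reads and one size factor for each library (0.924 to 1.05). Dividing by the value of 1 read gives whole reads for 100% of values (tolerance 0.01 reads). Also deposited are group means and the authors' own comparison (log2 fold change, raw p-value and adjusted p-value), which was not used. Aligner, counter and strand setting are not given in the sources used here. The labels list GRCm38 and mm10 as builds, while 329 of 345 genes carry SPRET/EiJ identifiers, so positions are printed as the table has them.

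Genes outside the table are not analysed here, and library depth is unknown. Over the listed genes the libraries hold 88836 to 100895 reads in Control and 150056 to 156029 in the G scaffold group. Replicates differed beyond sampling noise (ratio of chi-square to its degrees of freedom 2.13 to 7.93).

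The 4 genes, the lists and the tests were chosen with earlier results of these data known. The main test was limma 3.58.1 (R 4.3.3) on log2(value + 1) over all 345 genes, with group as the only term and no filter. A call needs an adjusted p up to 0.05 with a |log2 fold change| from 1 upwards. Ratios were compared by exact permutation (scipy 1.17.1). Bounds use a floor of 3 reads per library. The alternatives were edgeR 4.0.16 and DESeq2 1.42.0 on recovered reads with the authors' size factors, TMM factors, column totals, pseudocounts of 0.1 and 10, a minimum of 10 in every library, a replicate block and leaving out each library. Tests were tried on simulated counts first. The genes named are the 4, every listed gene of the pathway lists but one, the 3 most alike for each of the 4, and neighbours in rank. That gene is not reported here and is left out of the list counts. Marker lists for macrophages and for osteoblasts and fibroblasts were also read. Figures were drawn with matplotlib 3.10.9.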

Additional observations from a re-analysis of the deposited data

How the results depend on the processing

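All 4 genes stay below 0 in the 14 alternatives for each (13 for Ctsk, which the minimum of 10 in every library removes), and Acp5, Ctsk and Gpnmb stay past both thresholds in each of them. These outcomes were largely fixed in advance and are not independent support. The genes were selected on these libraries, and scaling by the listed genes, most of them higher, moves lower genes further down. Atp6v0d2 is short of a |log2 fold change| of 1 with a pseudocount of 10 (-0.95), and across the fits that each leave out one library it runs from -1.21 to -0.98, the latter without Control replicate 1. Of the 4 genes, 3 or 4 are called lower under every alternative. Over the table, genes called lower run from 38 to 58 and genes called higher from 115 to 287 against 55 and 285. The higher count moved by more than 1.5 times with TMM factors (135) and with the minimum of 10 (115), which leaves 161 genes to test. The difference of Acp5 against Ctsk turns to 0.0096 without G scaffold replicate 3 (-0.29 to 0.0096 over the fits without one library), and that of Ctsk against Gpnmb turns to 0.028 with a pseudocount of 10. For the other 4 pairs the sign held.

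Nothing states whether the replicate numbers pair the libraries. Same-numbered deviations from the group means correlate across genes at 0.0047, -0.035 and -0.071. With 3 libraries per group and genes selected on the group difference, these values cannot decide it. With a replicate block the log2 fold changes are the same by construction (-1.87 for Acp5, -1.76 for Ctsk, -1.11 for Atp6v0d2 and -1.19 for Gpnmb) and all 4 are called.

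Depth limits Ctsk most, with 27 reads over the 3 G scaffold libraries.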
